A study of Mus musculus with 6 samples.

Results

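The RNA of 10 genes known from neutrophils was followed in the infarcted mouse heart 48 h after ischemia/reperfusion (I/R) injury, in animals given the Wnt secretion inhibitor LGK-974 or its solvent. The genes were taken by symbol from a list that was chosen with earlier results of these data known. They were S100a8, S100a9, Csf3r, Retnlg, Ly6g, Lcn2, Mmp9, Ngp, Camp and Mpo, which are 10 of the 35968 genes with a measured transcript. LGK-974 blocks Porcupine, the enzyme that attaches a lipid to Wnt proteins so that they can leave the cell. The libraries came from the infarct area of 3 LGK-974-treated mice and 3 DMSO-treated mice, 1 library per mouse. All 6 mice were C57BL6 females, labelled as 12 weeks old, all had their left anterior descending artery tied and released, and all were dosed by oral gavage with either LGK-974 or the DMSO vehicle in citrate buffer. There were no uninjured hearts among the libraries, so every value is a level in injured tissue. RNA was taken from whole tissue, and fewer cells of a type and less RNA per cell cannot be told apart in it.

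Neutrophils are short-lived white blood cells that kill microbes and break down tissue with oxidants and with proteins stored in granules. They are built in the bone marrow. Their primary granules, with Mpo, are made first, then the secondary granules with Lcn2, Ngp and Camp, and then the tertiary granules with Mmp9. Transcription of most granule genes is shut down before the cells leave the marrow, whereas S100a8, S100a9, Csf3r and Retnlg stay abundant as RNA in mature cells.

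Each library held between 41579787 and 80398211 estimated counts, of which mitochondrial genes took 28.2 to 53.7%. Levels are given as CPM, which are counts per 1000000 counts of the library after TMM scaling between libraries. The label of heart tissue was met by 10 cardiomyocyte markers, whose summed level ran from 39970 to 57534 CPM with LGK-974 and from 46489 to 64460 CPM with DMSO. DMSO replicate 1 stood apart from the rest. It was the highest library for 40.2% of the 20076 genes tested, and 99.3% of 1464 olfactory and vomeronasal receptor genes had counts in it, against 61.7 to 89.2% in the other libraries. These receptor genes belong to sensory neurons of the nose, and their median count per kilobase was used as the background level of a library. It was 36.5 in DMSO replicate 1, 13.2 and 3.51 in the other DMSO libraries, and 12.6, 4.96 and 3.80 in LGK-974 replicates 1 to 3. Results that rest on DMSO replicate 1 are therefore given with and without it.

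Per kilobase of transcript and averaged over the 6 libraries, Lcn2 was the most abundant of the 10 genes at 61.7 CPM per kb, above 98.0% of the 34208 genes with counts. S100a8 followed with 10.99 CPM per kb, Csf3r with 7.96 and S100a9 with 7.18, and the ranges of these 3 genes over the libraries overlapped. Mmp9 reached 2.90 and Mpo 0.787 CPM per kb. Retnlg had 0.297, Ngp 0.129, Camp 0.122 and Ly6g 0.0960 CPM per kb. The genes thus fell into 6 that lay above the background level in all 6 libraries and 4 that came down to it in at least 2 libraries, as the plot of counts against background shows. This background is a median, and Mpo did not stand clear of the receptor genes. Per kilobase it exceeded 67.3 to 80.3% of them, depending on the library, while Retnlg exceeded 73.1% in DMSO replicate 3.

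**Figure D1:**
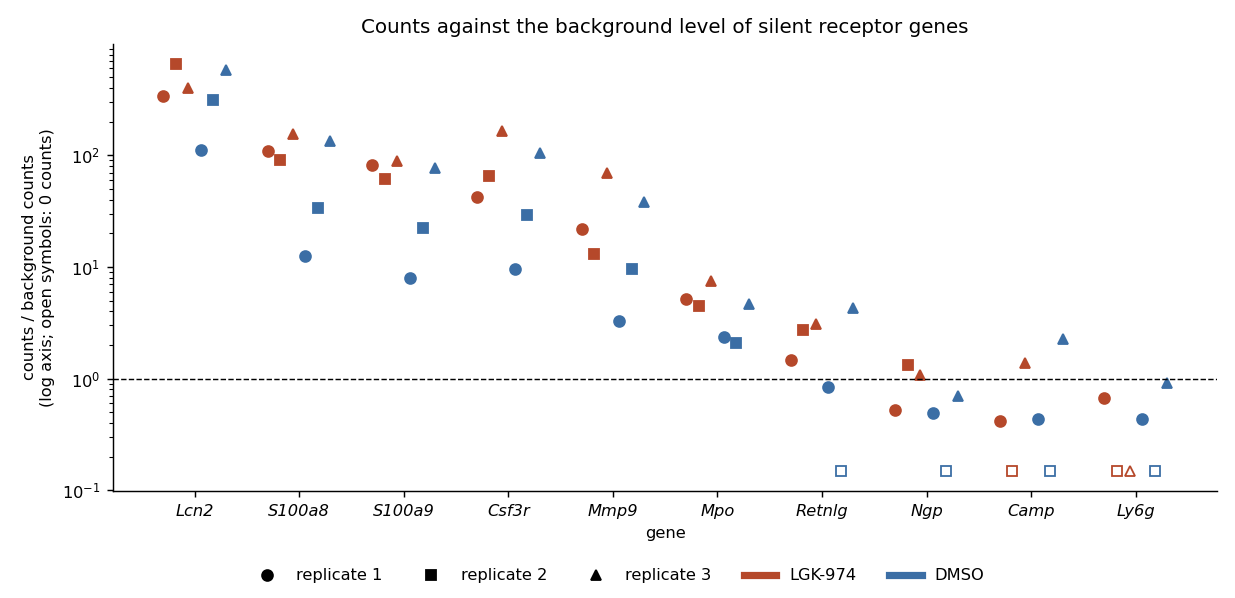
Counts of each neutrophil gene divided by the background counts of the same library (log axis), where background is the median count per kilobase of 1464 olfactory and vomeronasal receptor genes times the gene's length. Circles, squares and triangles are replicates 1 to 3, and open symbols at the bottom are libraries with 0 counts. Lcn2 lay at 113 to 654 times background, whereas all 6 Ly6g values lay under the dashed line at 1.

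The count filter, at least 10 counts in at least 3 libraries, was passed by S100a8, S100a9, Csf3r, Lcn2, Mmp9 and Mpo, and these 6 were compared between treatments. The fit found an adjusted p under 0.05 for 0 of them and an unadjusted p under 0.05 also for 0 (edgeR's quasi-likelihood test, Benjamini-Hochberg adjustment over all 20076 genes). Over all genes tested these shares were 0% and 13.4%, the latter made of 6.26% higher and 7.18% lower with LGK-974. DESeq2, the tool named in the methods of the study, gave an adjusted p under 0.05 to 0 of the 8 neutrophil genes for which it gave one and to 1.26% of all genes, and an unadjusted p under 0.05 to Lcn2 alone and to 13.1% of all genes. The libraries of both treatments overlapped for all 10 genes. Among all genes tested, 18% had groups that did not overlap, 10.7% with LGK-974 above DMSO and 7.26% below. The 6 fitted changes had a median of -0.13 (log2), beside a median of -0.13 over all genes tested. They were 0.06 and -0.02 without DMSO replicate 1.

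**Figure D2:**
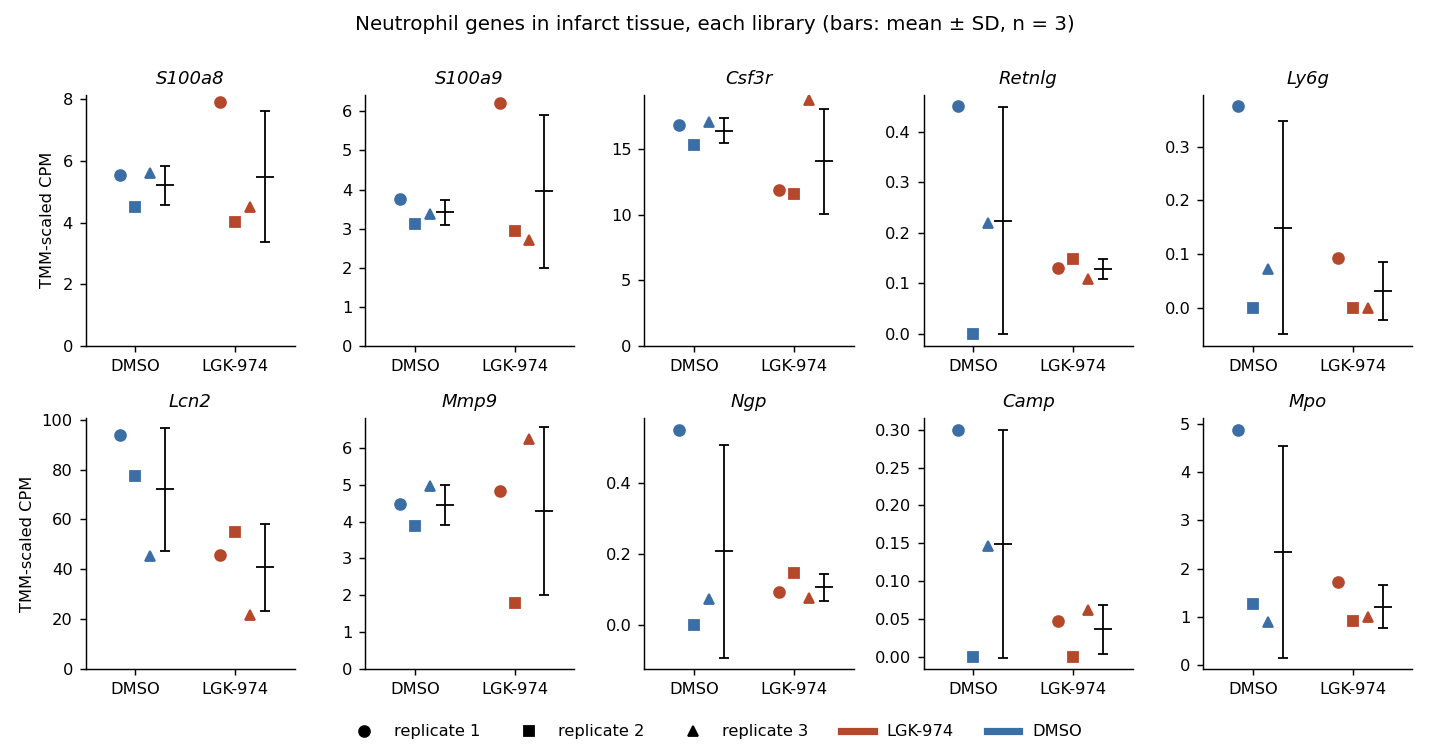
Level of each neutrophil gene in each library, in TMM-scaled CPM (linear axes, each gene with its own scale). Points are single mice, and the bars give the mean ± SD of 3 libraries per treatment. In all 10 panels the treatments overlap, and in 6 of them DMSO replicate 1 is the highest point.

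S100a8 and S100a9 encode the subunits of calprotectin, a calcium- and zinc-binding protein that fills the neutrophil cytosol and is released as an alarm signal. The genes are neighbours on chromosome 3 of GRCm38, S100a8 from 90668978 to 90670035 on the plus strand and S100a9 from 90692632 to 90695721 on the minus strand, with 22596 bases between them. S100a8 was measured at 7.91, 4.03 and 4.50 CPM in LGK-974 replicates 1 to 3 and at 5.53, 4.49 and 5.597 CPM in DMSO replicates 1 to 3. LGK-974 replicate 1 was the highest library and LGK-974 replicate 2 the lowest, so the DMSO values lay inside the LGK-974 range. S100a9 had 6.21, 2.93 and 2.71 CPM with LGK-974 and 3.75, 3.13 and 3.37 CPM with DMSO. Here too LGK-974 replicate 1 was highest, and the other LGK-974 libraries were both under the lowest DMSO value. S100a8 averaged 5.48 ± 2.12 CPM after LGK-974 against 5.20 ± 0.621 CPM after DMSO (SD, n = 3), a log2 fold change of 0.08 (standard error 0.306, edgeR adjusted p = 0.914). S100a9 averaged 3.95 ± 1.96 and 3.42 ± 0.314 CPM (SD, n = 3), a log2 fold change of 0.21 (standard error 0.374, edgeR adjusted p = 0.788).

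LGK-974 replicate 1 decided the sign of both changes. Without it the log2 fold changes were -0.30 for S100a8 and -0.29 for S100a9, with edgeR adjusted p of 0.693 and 0.760. Without DMSO replicate 1 they were 0.14 and 0.31. The subunits went up and down together across the mice, with a Pearson correlation of 0.95 between their log2 levels over the 6 libraries, both genes being read from the same libraries with the same depth and scaling. Counts of S100a8 per count of S100a9 were 1.27, 1.37 and 1.66 with LGK-974 and 1.47, 1.43 and 1.66 with DMSO. This ratio needs no scaling between libraries, and it differed by -0.09 (log2) between treatments, less than the spread between mice (two-sided exact permutation test, p = 0.6, where 0.1 is the smallest p that 3 against 3 libraries allow). The genes whose levels were most like the joint pattern of S100a8 and S100a9 over the 6 libraries, among 10848 genes with a mean of at least 5 CPM, were Cep85, Scyl3, Cdk7, Pcdh9 and Ptx3, with Pearson correlations of 0.97, 0.93, 0.90, 0.90 and 0.90. All of these genes were highest in LGK-974 replicate 1, where both subunits peaked. Their choice by likeness favours this, so it is no separate result. Cep85, the most alike, had 118 CPM there against 74.5 to 93.7 CPM in the other libraries. Ptx3, which encodes a soluble pattern recognition protein, had 8.64 CPM there against 4.01 to 4.78 CPM. The part of neutrophil RNA in the levels of these genes was not tested.

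The stretches before the starts of this pair are shown because the genes lie side by side and their levels moved together. They are the 250 bases before the RefSeq start, 5′ to 3′ on the gene's own strand, at chr3:90668821-90669070 (plus) for S100a8 and chr3:90695722-90695971 (minus) for S100a9, in GRCm38.p6. Capitals mark matches on either strand to TTNNGNAA, the core bound by C/EBP factors, or to GAGGAA, the core bound by PU.1. Both families of factors are known to drive granulocyte genes.
S100a8: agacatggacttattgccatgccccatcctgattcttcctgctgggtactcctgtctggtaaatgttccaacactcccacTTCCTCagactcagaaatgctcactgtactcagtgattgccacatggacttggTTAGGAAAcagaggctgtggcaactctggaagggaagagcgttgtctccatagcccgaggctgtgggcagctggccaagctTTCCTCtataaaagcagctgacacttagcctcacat
S100a9: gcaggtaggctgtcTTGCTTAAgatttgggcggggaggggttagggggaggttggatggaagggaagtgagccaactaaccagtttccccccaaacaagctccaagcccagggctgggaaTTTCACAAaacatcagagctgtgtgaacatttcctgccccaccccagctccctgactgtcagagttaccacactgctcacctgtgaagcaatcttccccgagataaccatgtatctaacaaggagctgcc
The S100a8 stretch held a C/EBP match that starts 117 bases before the RefSeq start and PU.1 matches that start 170 and 36 bases before it. The GENCODE annotation begins S100a8 inside this stretch, at 90668978, so the PU.1 match nearest the RefSeq start lies within the annotated gene. The S100a9 stretch held C/EBP matches starting 236 and 130 bases before the RefSeq start and no PU.1 match. Promoters were found for 9 of the 10 genes, and of these 6 held a C/EBP match and 5 a PU.1 match within 250 bases before and 50 bases after the start. Among all 32851 RefSeq promoters of that length, 40.7% held a C/EBP match and 28.3% a PU.1 match. No C/EBP and PU.1 match overlapped each other in these genes, and a match of letters is not evidence of binding.

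Csf3r encodes the receptor for G-CSF, the growth factor that drives neutrophil production and release. It lies on chromosome 4 from 126024550 to 126044440 on the plus strand. Csf3r was measured at 11.9, 11.6 and 18.7 CPM with LGK-974 and at 16.8, 15.3 and 17.1 CPM with DMSO. LGK-974 replicates 1 and 2 were the lowest libraries, but LGK-974 replicate 3 was the highest. The means were 14.1 ± 4.03 and 16.4 ± 0.965 CPM (SD, n = 3), a log2 fold change of -0.22 (standard error 0.216, edgeR adjusted p = 0.609), and -0.19 without DMSO replicate 1. Without LGK-974 replicate 3 it was -0.41 (edgeR adjusted p = 0.772) and without LGK-974 replicate 2 it was -0.04 (edgeR adjusted p = 0.952). The sign turned with the scaling: with plain library totals in place of TMM factors the log2 fold change was 0.06, when the median over all genes moved from -0.13 to 0.08. Protein-coding transcripts of Csf3r took 79.8 to 94.8% of its counts, so a part of its level belongs to transcripts annotated as noncoding. Its ligand gene Csf3 did not pass the count filter and had at most 0.200 CPM in any library.

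Retnlg encodes a resistin-like protein secreted by mature neutrophils and lies on chromosome 16 from 48872621 to 48874496 on the plus strand. It had 11, 8 and 7 counts with LGK-974 and 18, 0 and 9 counts with DMSO. DMSO replicate 1 was the highest library and DMSO replicate 2 the lowest, where 0 counts allow a level of up to 0.0618 CPM. Against background the order was different: the 18 counts of DMSO replicate 1 lay under the 21.6 counts of background there, while the 9 counts of DMSO replicate 3 were 4.32 times background and all 3 LGK-974 libraries were at 1.47 to 3.11 times. Ly6g encodes the surface antigen by which mouse neutrophils are usually sorted, and lies on chromosome 15 from 75155240 to 75159126 on the plus strand. It belongs to a family of similar genes, between which Kallisto may divide reads, so its counts are uncertain. It had 8, 0 and 0 counts with LGK-974 and 15, 0 and 3 counts with DMSO, and the libraries at 0 allow levels of up to 0.0467 to 0.0618 CPM. Every library was under its own background level, which was 34.3 counts in DMSO replicate 1, and the 15 counts there have a 95% exact Poisson interval of 8.40 to 24.7, for counting error only. The defining marker of the cell type was therefore not detectable above background at this depth, and no treatment difference in Ly6g could be measured.

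Lcn2 encodes lipocalin 2, an iron-siderophore-binding protein of secondary granules that injured heart cells and macrophages are also known to make. It lies on chromosome 2 from 32384633 to 32388252 on the minus strand. Lcn2 had 45.7, 55.2 and 21.6 CPM with LGK-974 and 93.9, 77.2 and 45.4 CPM with DMSO. The highest libraries were DMSO replicates 1 and 2, the lowest was LGK-974 replicate 3, and the overlap came from DMSO replicate 3, which lay under LGK-974 replicates 1 and 2. The means were 40.8 ± 17.3 and 72.2 ± 24.7 CPM (SD, n = 3), a log2 fold change of -0.82 (standard error 0.383, unadjusted p = 0.0650, edgeR adjusted p = 0.369). DESeq2 gave -0.78 with an unadjusted p of 0.0265 and an adjusted p of 0.215. Lcn2 was the only 1 of the 6 genes whose fitted sign stayed negative in all 14 alternatives and whose unadjusted p fell under 0.05 in any of them. In some of them it lay near the median over all genes. With DESeq2 Lcn2 was at -0.78 beside a median of -0.75, and with no filter on low counts at -0.62 beside -0.55. Without DMSO replicate 1 its log2 fold change was -0.56 (edgeR adjusted p = 0.608), and without LGK-974 replicate 3 it was -0.45 (edgeR adjusted p = 0.772). Coding transcripts took 99.2 to 99.9% of its counts.

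The Lcn2 stretch is shown because this gene had the highest level of the group. It spans chr2:32387740-32387989 (minus, GRCm38.p6), with C/EBP and PU.1 matches in capitals.
Lcn2: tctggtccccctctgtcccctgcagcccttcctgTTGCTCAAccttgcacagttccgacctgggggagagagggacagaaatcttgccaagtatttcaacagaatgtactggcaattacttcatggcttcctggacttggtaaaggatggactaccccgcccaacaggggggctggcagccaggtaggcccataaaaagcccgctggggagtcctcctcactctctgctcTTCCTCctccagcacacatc
The C/EBP match starts 216 bases and the PU.1 match 20 bases before the RefSeq start. In the GENCODE annotation longer Lcn2 transcripts begin further upstream, so this stretch lies within the annotated gene.

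Mmp9 encodes gelatinase B, a matrix-degrading protease of tertiary granules that macrophages also make, on chromosome 2 from 164940780 to 164955850 on the plus strand. Mmp9 had 4.83, 1.80 and 6.25 CPM with LGK-974 and 4.48, 3.89 and 4.96 CPM with DMSO. LGK-974 replicate 2 was the lowest library and LGK-974 replicate 3 the highest, and the DMSO values lay between them. The means were 4.29 ± 2.27 and 4.44 ± 0.536 CPM (SD, n = 3), a log2 fold change of -0.05 (standard error 0.432, edgeR adjusted p = 0.966), and -0.03 without DMSO replicate 1. Its sign also depended on scaling, at 0.29 with plain library totals, and LGK-974 replicate 2 moved it most, since without that library it was 0.38 (edgeR adjusted p = 0.617). Mmp9 and Csf3r had their highest level in the same library, LGK-974 replicate 3, and their log2 levels had a Pearson correlation of 0.70 over the 6 libraries. In the remaining pairs of the 6 genes, that of S100a8 and S100a9 aside, the correlation ran from -0.49 to 0.61.

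Ngp and Camp encode antimicrobial proteins of the cathelicidin-related family that are packed into secondary granules in the marrow. They lie on chromosome 9, Ngp from 110419747 to 110423012 on the plus strand and Camp from 109847379 to 109849617 on the minus strand. Ngp had 8, 8 and 5 counts with LGK-974 and 22, 0 and 3 counts with DMSO, and Camp had 4, 0 and 4 counts with LGK-974 and 12, 0 and 6 counts with DMSO. Both were highest in DMSO replicate 1 and at 0 in DMSO replicate 2, and Camp was also at 0 in LGK-974 replicate 2. A count of 0 allows up to 0.0618 CPM in the former library and 0.0557 CPM in the latter. Against background the picture turned round for DMSO replicate 1, where Ngp was at 0.494 and Camp at 0.434 times the background level, and each gene was at or under background in 4 of the 6 libraries. The highest ratios to background were 1.32 for Ngp, in LGK-974 replicate 2, and 2.25 for Camp, in DMSO replicate 3. Neither gene passed the count filter. The sum of Ngp and Camp counts was 0.996, 2.13 and 1.94% of the sum of S100a8 and S100a9 counts with LGK-974, and 9.16, 0 and 2.45% with DMSO. The difference was -2.18 percentage points (two-sided exact permutation test, p = 0.7), beside an SD of 4.74 between the DMSO mice, and it was 0.465 without DMSO replicate 1. With background counts subtracted it was -0.0227 (exact permutation p = 1), and from TPM values it was -0.934 (exact permutation p = 0.6).

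The stretch before Ngp is shown as that of a marrow-stage gene that lay at background here, at chr9:110419558-110419807 (plus, GRCm38.p6).
Ngp: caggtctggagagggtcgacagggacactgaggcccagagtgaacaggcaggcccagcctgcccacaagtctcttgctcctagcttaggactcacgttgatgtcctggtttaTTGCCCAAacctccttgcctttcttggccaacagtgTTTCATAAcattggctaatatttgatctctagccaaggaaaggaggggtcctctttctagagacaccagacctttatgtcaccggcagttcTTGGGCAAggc
It held C/EBP matches starting 138, 102 and 11 bases before the RefSeq start and no PU.1 match, and its last bases lie within the first exon of the GENCODE annotation. The Camp promoter held neither motif. A C/EBP match was found both in genes well above background, S100a8, S100a9 and Lcn2, and in genes near or at background, Retnlg, Ly6g and Ngp.

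Mpo encodes myeloperoxidase, which makes hypochlorous acid from hydrogen peroxide and is transcribed in early marrow precursors. It lies on chromosome 11 from 87793581 to 87804413 on the plus strand and shares 512 exonic bases with Gm11505 on the opposite strand, so reads from this stretch are uncertain. Mpo had 1.72, 0.929 and 0.997 CPM with LGK-974 and 4.88, 1.28 and 0.904 CPM with DMSO. DMSO replicate 1 was far above the other libraries, and DMSO replicate 3 was the lowest of all. The means were 1.22 ± 0.440 and 2.35 ± 2.19 CPM (SD, n = 3), a log2 fold change of -0.95 (standard error 0.691, edgeR adjusted p = 0.501). Without DMSO replicate 1 it was 0.19 (standard error 0.487, edgeR adjusted p = 0.914). Counts were 2.07 to 7.43 times the background level, and DMSO replicate 1, with 195 counts over a background of 82.6, was at 2.36 times.

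**Figure D3:**
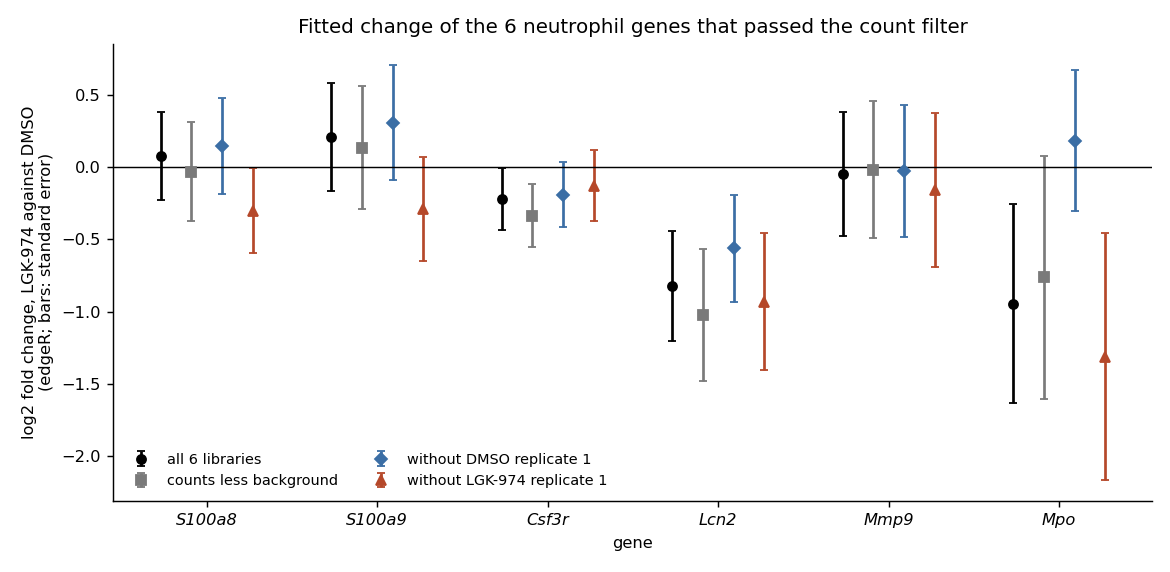
Fitted log2 fold change (LGK-974 against DMSO, edgeR) of the 6 genes that passed the count filter, with bars for the standard error, from all 6 libraries, from counts less background, and without DMSO replicate 1 or LGK-974 replicate 1. S100a8 and S100a9 cross 0 without LGK-974 replicate 1 and Mpo crosses 0 without DMSO replicate 1, whereas Lcn2 stays between -0.56 and -1.02 in these fits.

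Of the 10 genes, 6 had their highest level in DMSO replicate 1 (Retnlg, Ly6g, Lcn2, Ngp, Camp and Mpo), 2 in LGK-974 replicate 1 and 2 in LGK-974 replicate 3. DMSO replicate 1 was also the highest library for 57.4% of all genes with counts. With the background counts of each library subtracted, the log2 fold changes were -0.03 for S100a8, 0.14 for S100a9, -0.34 for Csf3r, -1.02 for Lcn2, -0.02 for Mmp9 and -0.76 for Mpo. The lowest edgeR adjusted p among them was 0.361, that of Lcn2. Over all 15 fits the adjusted p of edgeR, or of DESeq2 in 1 fit, ran from 0.128 to 0.772 for Lcn2, from 0.275 to 0.914 for Mpo, from 0.474 to 0.993 for Csf3r, from 0.584 to 0.911 for S100a9, from 0.617 to 0.993 for Mmp9 and from 0.670 to 0.985 for S100a8.

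Other genes of the neutrophil programme were described through lists of receptors, granule proteins, growth and lineage regulators, and recruitment signals. Of 16 neutrophil surface genes, 14 were tested, and with an unadjusted p under 0.05 in edgeR 4 of them were higher with LGK-974 and 1 was lower, beside 6.26% and 7.18% of all genes. None of the genes in these lists had an edgeR adjusted p under 0.05. Clec4d, a C-type lectin receptor, had 12.3 ± 1.36 CPM after LGK-974 against 5.11 ± 1.12 CPM after DMSO (SD, n = 3), a log2 fold change of 1.27 (edgeR adjusted p = 0.367). Itgam and Itgb2, the chains of the Mac-1 integrin of neutrophils, monocytes and macrophages, had log2 fold changes of 0.95 and 1.01, at the same edgeR adjusted p of 0.367, and all 3 LGK-974 libraries lay above all 3 DMSO libraries for each of these genes. The 1 lower gene was Cxcr2, the main chemokine receptor of neutrophils, named after its values were seen. Cxcr2 had 16.8, 12.3 and 12.0 CPM with LGK-974 and 50.02, 16.5 and 17.1 CPM with DMSO, and without DMSO replicate 1 none of the 14 genes was lower at an unadjusted p under 0.05 while 5 were higher, beside 3.9% and 7.13% of all genes in that fit.

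Of 17 other granule and secretory vesicle genes, 10 were tested, and 6 were higher with an unadjusted p under 0.05 in edgeR and 0 lower, beside 6.26% and 7.18% of all genes, with a median log2 fold change of 0.90. Cybb, the catalytic subunit of the phagocyte oxidase, had 28.5 ± 4.74 CPM after LGK-974 against 14.6 ± 1.03 CPM after DMSO (SD, n = 3), a log2 fold change of 0.96. Lyz2, lysozyme of neutrophils and macrophages, had 179 ± 27.2 and 72.9 ± 18.3 CPM (SD, n = 3), a log2 fold change of 1.30, and Chil3, a chitinase-like protein of both cell types, had 37.6 ± 13.5 and 17.5 ± 0.342 CPM (SD, n = 3), a log2 fold change of 1.10. Each had an edgeR adjusted p of 0.367. Elane, Olfm4 and Bpi, whose products are neutrophil granule proteins, were at or under background in all 6 libraries, and Elane had 0 counts in 5 of them. Many of these genes are shared with monocytes and macrophages. Of 12 markers of those cells, 8 were higher with an unadjusted p under 0.05 in edgeR and 0 lower, beside the same shares of all genes. The median log2 fold change of the 12 was 0.79. Their summed level was 449 to 487 CPM with LGK-974 against 276 to 359 CPM with DMSO. Ly6c2, Ccr2, Cx3cr1 and Cd163 did not pass, and their treatments overlapped. Mean levels after LGK-974 and DMSO were 5.94 and 3.40 CPM for Ly6c2 and 23.1 and 11.6 CPM for Ccr2. For Cx3cr1 they were 9.24 and 8.07 CPM. Cd163 had a fitted change below 0, with 37.4 ± 19.8 against 63.4 ± 14.2 CPM (SD, n = 3), a log2 fold change of -0.76. The part of macrophage RNA in the values of Cybb, Lyz2, Chil3, Itgam and Itgb2 was not tested.

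Of 12 genes of granulocyte growth and lineage control, 7 were tested, and 3 were higher with an unadjusted p under 0.05 in edgeR and 0 lower, beside 6.26% and 7.18% of all genes. These were Spi1, which encodes PU.1, with a log2 fold change of 1.03, Csf2rb, the common beta chain of the GM-CSF receptor, with 0.95, and Il17ra, the interleukin-17 receptor, with 0.65. All 17 recruitment genes were tested, and 3 were higher and 0 lower with an unadjusted p under 0.05, beside the same 6.26% and 7.18%. They were C5ar1, the receptor for complement C5a (49.6 ± 8.69 against 23.8 ± 5.34 CPM; SD, n = 3), Alox5ap, which is needed for leukotriene synthesis (10.9 ± 1.02 against 6.73 ± 1.51 CPM), and the selectin ligand Selplg (21.2 ± 1.61 against 16.1 ± 0.820 CPM). The part of macrophage RNA in the values of C5ar1, Alox5ap and Selplg was not tested. The chemokine genes of this list did not pass, and their groups overlapped. Their log2 fold changes were 0.44 for Cxcl1, 0.15 for Cxcl2, -0.71 for Cxcl3, 0.36 for Cxcl5, -0.10 for Ppbp and 0.28 for Cxcl12. Without DMSO replicate 1 the count of recruitment genes was 7 higher and 0 lower, where 7.13% of all genes in that fit were higher and 3.9% lower.

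**Figure D4:**
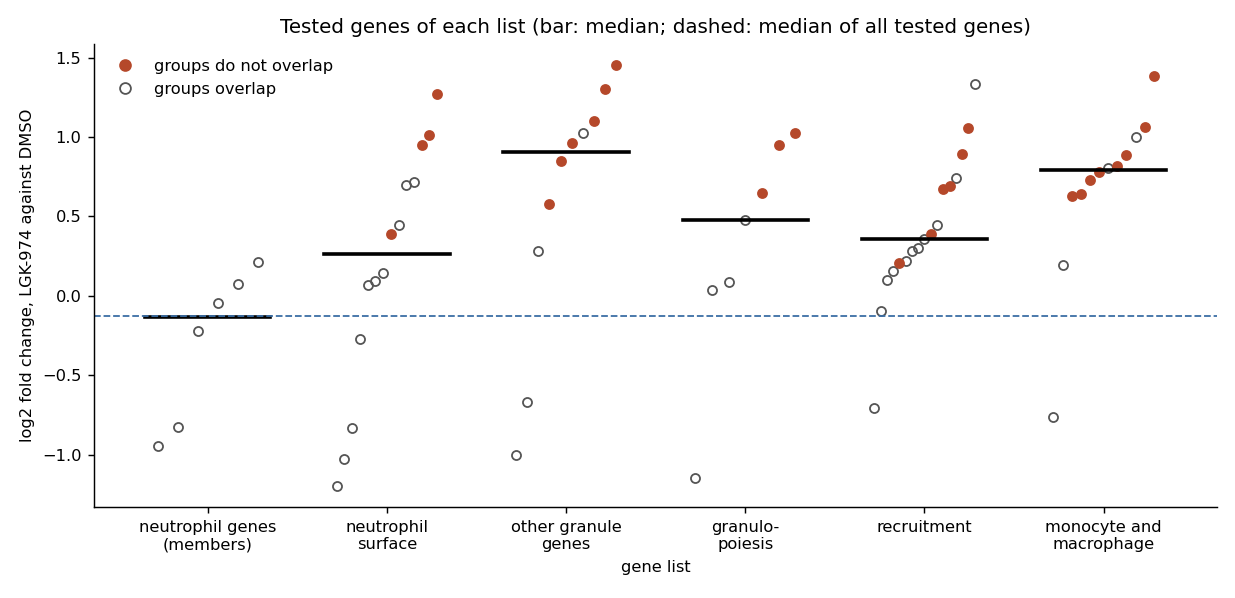
Fitted log2 fold change (LGK-974 against DMSO, edgeR) of the tested genes of each list, with a bar at the median and a dashed line at the median of all tested genes (-0.13). Filled points are genes whose treatments do not overlap. The 6 neutrophil genes are all open and lie around the dashed line, while 8 of 12 monocyte and macrophage markers are filled and lie above it.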

How the data were processed

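RNA sequencing of the infarct area was analysed for 3 LGK-974-treated and 3 DMSO-treated mice, grouped by the sample labels. Total RNA was depleted of ribosomal RNA and made into libraries with the TrueSeq RNA Access kit, and the authors quantified transcripts with Kallisto on an index of GRCm38 (the version and any trimming are not given in the sources used here). The authors deposited estimated counts for 118489 transcripts per library, which are not all whole numbers because Kallisto can divide a read between transcripts. The deposited TPM values, scaled to transcript length and library sum by the authors, were used only in an alternative.

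Estimated counts were joined to GENCODE genes of GRCm38 (98.5% of transcripts, 99.6 to 99.7% of counts), summed per gene and rounded. Sums ranged from 41579787 to 80398211 per library, and intervals and limits for 0 counts (3 counts) cover counting error only. The test was the quasi-likelihood F test of edgeR 4.0.16 under R 4.3.3, with TMM factors, treatment as the only term, Benjamini-Hochberg adjustment and a threshold of 0.05, over genes that had 10 counts or more in 3 libraries or more. DESeq2 1.42.0, other scalings, no filter, counts less background, counts from TPM, a replicate block and leaving out each library were alternatives. Fold changes are LGK-974 against DMSO. Correlations used log2(CPM + 1). Ratios within a library were tested with a two-sided exact permutation test over the 6 libraries. The ratio of Ngp and Camp to S100a8 and S100a9 was tested as a percentage, not as a logarithm, because 1 library was at 0. On simulated data for this comparison, with 200 of 20076 genes changed by a log2 fold of 2 at the fitted dispersion, edgeR recovered 48.5% of them (6 false among 103 called) and DESeq2 66.5% (80 false among 213 called).

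The neutrophil genes and the other lists were chosen with earlier results of these data known. From each list, up to 3 genes with the smallest p-values were named. Csf3, Cxcr2, Lrp2, Ly6c2, Ccr2, Cx3cr1, Cd163 and list genes at or under background were named in addition, after their values were seen. So were the chemokine genes of the recruitment list and the fibroblast markers. The replicate numbers are shared by both treatments but come from different mice, so they were not taken as pairs. Promoters (250 bases before to 50 after the start) came from RefSeq, build GRCm38.p6, matched by symbol. Python 3.11.15 (pandas 2.3.3, NumPy 2.4.6, SciPy 1.17.1) made the tables and matplotlib 3.10.9 the plots.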

Additional observations from a re-analysis of the deposited data

How the results depend on the processing

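The count of neutrophil genes with an adjusted p under 0.05 was 0 in all 14 alternatives that fitted the genes, and the groups of all 10 genes overlapped under each scaling. The count with an unadjusted p under 0.05 became 1 with DESeq2, with no filter on low counts and with the replicate block, and ran from 0 to 1 with 1 library left out. Over all genes it was 4778 of 34208 with no filter. With 1 library left out it ran from 821 of 19694 (without LGK-974 replicate 3) to 4624 of 19931 (without DMSO replicate 3). The same-numbered libraries had correlations of -0.05 to 0.48 between their deviations from the group means, and differently numbered ones of -0.52 to 0.10. Whether libraries of the same number share anything beyond it was not tested. The block moved the count over all genes from 2698 to 3314. With it Lcn2 had a log2 fold change of -0.87 (edgeR unadjusted p = 0.00183, adjusted p = 0.128). Among the 6 genes that passed the count filter, the count of non-overlapping genes ran from 0 to 1 with 1 library left out. The gene was S100a9 without LGK-974 replicate 1, Csf3r without LGK-974 replicate 3 and Lcn2 without DMSO replicate 3. The share over all genes was not counted with 1 library left out, so nothing is concluded from these counts. The median of the 6 fitted changes was 0.18 with plain library totals and ran from -0.37 (without LGK-974 replicate 3) to 0.14 (without LGK-974 replicate 2).

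Fitted signs turned in these cases, none with a call, and the cause was not tested. S100a8 went to -0.0312 with background subtracted. Csf3r went to 0.0624 with plain library totals and to 0.12 with counts scaled from TPM. Mmp9 went to 0.29 with plain library totals, 0.18 with totals without mitochondrial genes and 0.10 with no filter. Plain totals moved the median of all genes from -0.13 to 0.08, and relative to that median Csf3r was at -0.02 and Mmp9 at 0.21. With 1 library left out, S100a8 ran from -0.30 to 0.32, S100a9 from -0.29 to 0.51 (both lowest without LGK-974 replicate 1), Mmp9 from -0.33 to 0.38 (highest without LGK-974 replicate 2, and 0.15 without DMSO replicate 3), and Mpo from -1.31 to 0.19 (highest without DMSO replicate 1). The difference in Ngp and Camp as a percentage of S100a8 and S100a9 ran from -4.12 to 0.465, the latter without DMSO replicate 1. Retnlg, Ly6g, Ngp and Camp had 0 to 22 counts per library and came down to background in at least 2 libraries, so they cannot show a difference between treatments. Why their counts were this low was not tested.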

Other observations

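The partners of the neutrophil proteins and the genes that clear dying neutrophils add values that the comparisons above do not hold. Of 10 partner genes, all tested, 3 were higher and 1 lower with an unadjusted p under 0.05 in edgeR, beside 6.26% and 7.18% of all genes, and 0 had an adjusted p under 0.05. Timp1, the inhibitor that binds the Mmp9 protein, had 81.8 ± 32.6 CPM after LGK-974 against 35.5 ± 7.02 CPM after DMSO (SD, n = 3), a log2 fold change of 1.20, while Mmp9 itself was at -0.05. Cd14 and Tlr2, receptors of the innate immune system, had log2 fold changes of 1.07 and 0.91. The lower gene was Lrp2, a receptor that takes up lipocalin 2, which had 13.0 CPM in DMSO replicate 1 and 0.978 to 4.82 CPM in the other libraries. Without DMSO replicate 1 none of the partner genes was lower at an unadjusted p under 0.05.

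Of 10 clearance genes, all tested, 2 were higher and 0 lower with an unadjusted p under 0.05 in edgeR, beside 6.26% and 7.18% of all genes. Anxa1, annexin A1, a protein that ends neutrophil influx, had 77.4 ± 13.4 CPM after LGK-974 against 38.8 ± 6.44 CPM after DMSO (SD, n = 3), a log2 fold change of 0.995 (edgeR adjusted p = 0.367). The scavenger receptor Stab1 had 179 ± 23.5 and 110 ± 32.9 CPM (SD, n = 3), a log2 fold change of 0.70. The scavenger receptor Cd36, the third by p-value, had 571 ± 254 and 857 ± 129 CPM (SD, n = 3), a log2 fold change of -0.59 (edgeR adjusted p = 0.444), with overlapping groups.

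Markers of other cell types were read in the same fit. With an unadjusted p under 0.05 in edgeR, 6.26% of all genes were higher and 7.18% lower. At that threshold 4 of 8 fibroblast markers were higher and 0 lower (summed level 3401 to 5920 CPM with LGK-974 and 1663 to 2461 CPM with DMSO). They were Col1a1, Col1a2, Col3a1 and Postn. Col1a1 and Col3a1 took the largest parts of the sum, with means of 1259 and 1568 CPM after LGK-974. Pdgfra, Dcn, Lum and Tcf21 did not pass, with log2 fold changes of 0.13, 0.005, 0.49 and 0.59. Of 10 cardiomyocyte markers 1 was higher, Actc1, with a log2 fold change of 0.86. The other 9 had fitted changes below 0, and the median of the 10 was -0.45 (-0.54 without DMSO replicate 1). Of the markers of other cells, 0 of 7 endothelial, 0 of 8 T cell, 0 of 6 B cell and 0 of 6 erythroid markers passed in either direction. Of the platelet markers 1 of 5 was lower, and of 6 tested mast cell, basophil and eosinophil markers 1 was lower. The last count without DMSO replicate 1 was 0 lower of 5 tested, that of the platelet markers was 1 lower of 4 tested, and 1 of 10 cardiomyocyte markers was higher and 1 lower. In that fit 7.13% of all genes were higher and 3.9% lower. The eosinophil granule genes Prg2 and Epx were at or under background in all 6 libraries.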
